A study of Mus musculus with 18 samples.

Results

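Blood left in a dissected brain carries its own RNA into every library made from it. The 6 genes described here report on that RNA: Hba-a1, Hba-a2, Hbb-bs and Hbb-bt, which encode the adult alpha and beta globin chains, Alas2, which encodes the erythroid enzyme of the first step of heme synthesis, and Igkc, which encodes the constant part of the immunoglobulin kappa light chain. They were chosen by name as a measure of residual blood in each library, and they are 6 of the 38561 genes counted. All 6 members had at least 10 counts in a library, as did 17545 genes in all. The measured value behind the choice was the genotype difference of Igkc in frontal cortex, since Igkc was selected on it, so that difference is given only as a description.

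The 18 libraries came from frontal cortex, striatum and hippocampus of WT and PCM1 KO (Pcm1-/-) adult littermates, labelled C57 Bl6J, with 3 libraries per genotype in each region. The KO line carries a gene trap in Pcm1, which encodes a scaffold protein of centriolar satellites. It was made in E14Tg2a.4 embryonic stem cells and then backcrossed, and the labels name no treatment. The tissue was dissected and snap-frozen on 1 day. No perfusion to clear the blood was stated for this tissue. The names of the deposited data carry the same 6 numbers in all 3 regions, 3 for each genotype. They were read here as animals, so that regions are repeats within an animal rather than new animals. The labels do not name the animals, and in WT striatum the replicate numbers run in another order than these numbers, so each result by animal below rests on that reading. Total counts per library ranged from 24950537 to 33405081. Pcm1 had 313 to 520 counts in the 9 KO libraries and 3425 to 4919 in the 9 WT libraries. The marker lists followed the labelled regions, with the summed level of 5 striatal markers at 4643 to 6168 CPM (counts relative to the normalized library size) in striatum and 85.3 to 184 CPM elsewhere.

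Hemoglobin is a tetramer of alpha and beta chains, each with a heme group. Red cells lose the nucleus before they enter the circulation, but young red cells (reticulocytes) still hold globin mRNA and Alas2 mRNA. The kappa light chain is made by B cells and, in far larger amounts, by antibody-secreting plasma cells, which can sit in the meninges and at the choroid plexus as well as circulate. The globins and Alas2 on the one hand and Igkc on the other thus mark different blood-borne cells.

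Both globin pairs are nearly identical in coding sequence, which decides what the counts can show, because only reads that mapped to 1 place were kept. Hba-a1 lies at chr11:32283511-32284465 and Hba-a2 at chr11:32296489-32297298, both on the plus strand of GRCm38. Their coding sequences of 429 bases differ at a single base, C381T, counted from the first base of the start codon, with the base of Hba-a1 first. It is the third base of codon 127, in the last coding exon. Hbb-bs lies at chr7:103826534-103828096 and Hbb-bt at chr7:103812524-103813996, both on the minus strand, and their coding sequences of 444 bases also differ at 1 base, C417T in codon 139. The stretches around those bases are shown 5′ to 3′ on the coding strand because they are the only place in the coding sequence where a read can be assigned to 1 copy, with the differing base in capitals.
Hba-a1: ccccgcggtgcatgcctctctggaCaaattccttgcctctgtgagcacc
Hba-a2: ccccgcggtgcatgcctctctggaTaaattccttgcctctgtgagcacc
Hbb-bs: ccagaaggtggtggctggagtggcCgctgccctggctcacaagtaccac
Hbb-bt: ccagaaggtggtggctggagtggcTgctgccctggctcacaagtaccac
Of the 380 stretches of 50 bases in the Hba coding sequence, 49 (12.9%) occur in 1 of the copies only, and of the 395 in the Hbb coding sequence 28 (7.09%) do. With 100 bases the shares were 14.8% and 8.12%. Reads over the rest of the coding sequence match both copies and were dropped, so the 4 globin counts understate globin mRNA. Alas2 (chrX:150547375-150570638, plus strand) and Igkc (chr6:70726435-70726966, plus strand) have no such twin among the members.

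The 4 globin genes and Alas2 moved together over the libraries, so the bases before their start sites were also compared. The 250 bases before the RefSeq start are shown 5′ to 3′ on the gene's strand (RefSeq, GRCm38.p6). In capitals are 4 motifs, each searched as exact letters on both strands. They are GATAAG, a form of the letters bound by GATA factors, CACCC, letters bound by KLF factors, CCAAT, and the TATA-box letters ATATAA. The windows lie at chr11:32283422-32283671 for Hba-a1, chr7:103827929-103828178 for Hbb-bs, chr7:103813924-103814173 for Hbb-bt and chrX:150547167-150547416 for Alas2.
Hba-a1: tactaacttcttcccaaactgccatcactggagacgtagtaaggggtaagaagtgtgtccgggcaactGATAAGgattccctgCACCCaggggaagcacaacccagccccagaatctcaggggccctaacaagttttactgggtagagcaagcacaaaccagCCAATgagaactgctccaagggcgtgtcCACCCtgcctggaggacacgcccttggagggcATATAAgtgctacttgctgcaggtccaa
Hbb-bs: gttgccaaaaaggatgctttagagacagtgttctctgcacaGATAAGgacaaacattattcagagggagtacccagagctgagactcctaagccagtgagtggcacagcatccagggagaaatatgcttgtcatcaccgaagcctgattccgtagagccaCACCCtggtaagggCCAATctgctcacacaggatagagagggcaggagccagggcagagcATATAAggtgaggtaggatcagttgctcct
Hbb-bt: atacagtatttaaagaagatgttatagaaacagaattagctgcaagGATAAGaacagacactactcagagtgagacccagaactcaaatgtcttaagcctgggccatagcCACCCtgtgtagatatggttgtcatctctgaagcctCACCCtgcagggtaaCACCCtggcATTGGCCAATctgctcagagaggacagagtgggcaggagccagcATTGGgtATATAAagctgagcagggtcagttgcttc
Alas2: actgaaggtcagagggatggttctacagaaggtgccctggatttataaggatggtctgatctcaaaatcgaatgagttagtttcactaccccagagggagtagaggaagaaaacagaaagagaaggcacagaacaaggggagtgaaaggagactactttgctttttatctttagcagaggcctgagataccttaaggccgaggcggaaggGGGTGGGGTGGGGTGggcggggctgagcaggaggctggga
All 4 globin windows hold all 4 motifs, with GATAAG and ATATAA once each. Among 32536 mouse promoter windows of the same length, GATAAG occurs in 6.42%, CACCC in 52.1%, CCAAT in 33.8% and ATATAA in 9.09%. The windows of Hba-a1 and Hba-a2 share an identical stretch of 247 bases, whereas the longest stretch that Hbb-bs and Hbb-bt share is 14 bases. The Alas2 window holds CACCC letters 3 times, all on the opposite strand, and none of the other 3 motifs as spelled. It does hold AGATAA on the opposite strand, which the search did not cover. The search thus does not show that a GATA site is absent there.

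These 6 genes took little of any library, between 0.00358% and 0.0235% of its counts. Hbb-bs was the most abundant, with 652 to 3911 counts per library, and Igkc had as few as 3. On a per-length scale, CPM per kb of exon, the mean levels over 18 libraries were 81.4 for Hbb-bs, 22.1 for Hba-a1, 16.5 for Hba-a2, 13.5 for Hbb-bt, 9.43 for Igkc and 2.04 for Alas2. Hbb-bs was above Hba-a1, and Hba-a1 above Hba-a2, in 18 of 18 libraries. Hba-a2 was above Hbb-bt in 16 of 18. Igkc was above Alas2 in only 9 of 18, so those neighbours were not ordered. The order among globins carries the loss of shared reads, which need not be equal for the 4 genes.

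**Figure D1:**
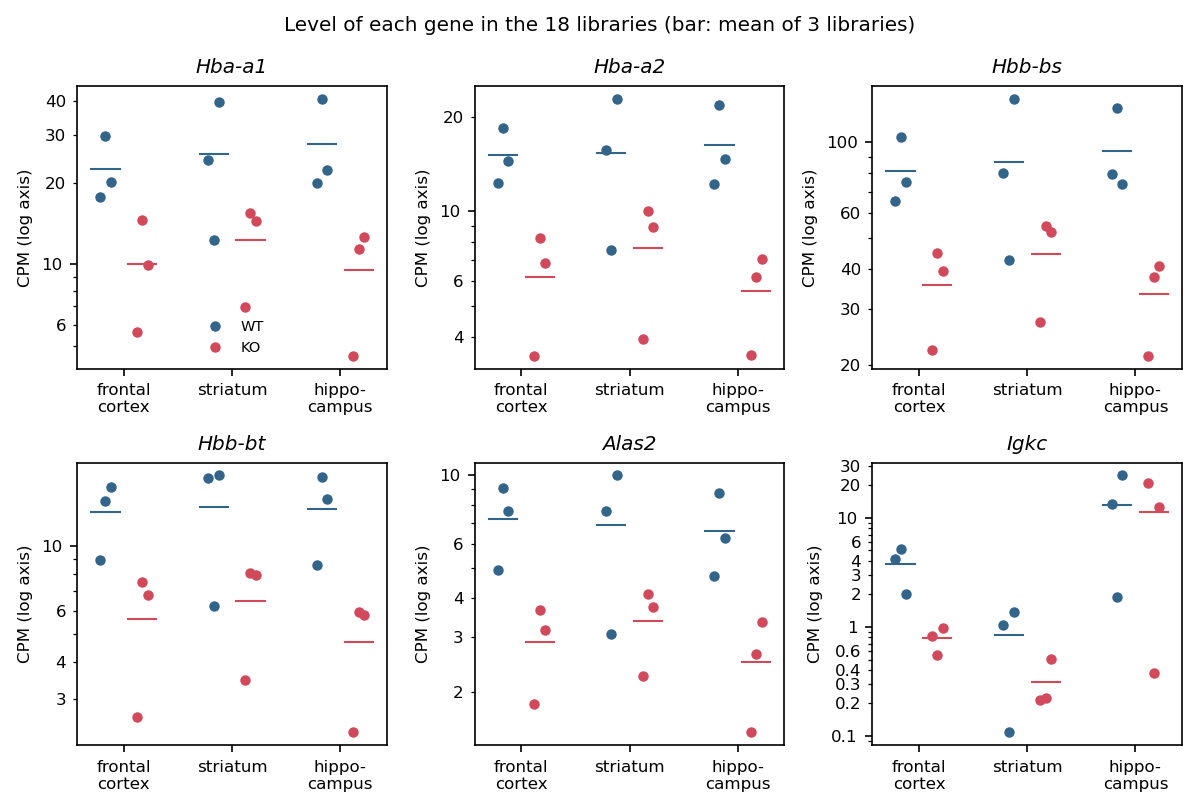
Level of each gene in CPM (log axis) in the 3 WT and 3 KO libraries of each region, with a bar at the mean of 3. The 4 globin genes and Alas2 show one pattern in all panels, with KO means below WT means, whereas Igkc is spread over more than 2 powers of 10 and is highest in hippocampus.

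In frontal cortex the globins and Alas2 were lower in KO than in WT, with no overlap between the groups. Hbb-bs, the main adult beta globin, had 65.3, 104 and 75.2 CPM in the 3 WT libraries and 22.3, 44.9 and 39.5 CPM in the 3 KO libraries. Hba-a1 had 17.8, 29.8 and 20.2 CPM in WT and 5.64, 14.6 and 9.94 CPM in KO. Every KO library lay below every WT library for both. Hba-a2 had 12.3, 18.4 and 14.5 CPM in WT and 3.48, 8.24 and 6.85 CPM in KO. Hbb-bt, the minor beta globin in these counts, had 8.96, 14.3 and 16.0 CPM in WT and 2.60, 7.53 and 6.78 CPM in KO. Alas2, whose enzyme feeds heme to the globin chains, had 4.94, 9.06 and 7.63 CPM in WT and 1.82, 3.67 and 3.16 CPM in KO. KO means were 40.0% (Alas2) to 44.5% (Hba-a1) of WT means.

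None of the 5 testable genes passed an adjusted p of 0.05 in frontal cortex with edgeR's quasi-likelihood test, where 1.74% of the 17545 genes did. All 5 had an unadjusted p under 0.05, as did 15.3% of all genes, and DESeq2 called 3 of them, Alas2, Hbb-bs and Hba-a2, where it called 3.93% of genes. The log2 fold change of Hbb-bs was -1.20 (SE 0.247, adjusted p = 0.0528). Alas2 had -1.33 (SE 0.282, adjusted p = 0.0590), Hba-a2 -1.29 (adjusted p = 0.0572), Hba-a1 -1.17 (adjusted p = 0.107) and Hbb-bt -1.22 (adjusted p = 0.136). All 5 genes had groups without overlap, KO lower, against 9.28% of all genes tested. The adjusted p-values lay close to the threshold, and the processing moved them across it: 5 of 5 passed when the filter on low counts was dropped (2.22% of all genes), and 2 (Hbb-bs and Hba-a2) without WT replicate 3 (4.7%). In bulk tissue, fewer cells of a type and less RNA per cell cannot be told apart.

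In hippocampus the globins and Alas2 were again lower in KO, with no overlap between the groups. Hbb-bs had 79.7, 127 and 74.0 CPM in WT and 21.4, 37.9 and 41.0 CPM in KO. Hba-a1 had 20.1, 40.9 and 22.3 CPM in WT and 4.60, 11.4 and 12.6 CPM in KO. Alas2 had 4.74, 8.77 and 6.28 CPM in WT and 1.48, 2.64 and 3.35 CPM in KO. The groups of these genes, and those of Hba-a2 (12.2 to 21.7 CPM in WT, 3.49 to 7.03 CPM in KO) and Hbb-bt (8.59 to 17.3 CPM in WT, 2.30 to 5.96 CPM in KO), did not overlap. KO means were 34.3% (Hba-a1) to 37.8% (Alas2) of WT means. Log2 fold changes ran from -1.42 (Alas2, SE 0.334) to -1.56 (Hba-a1, SE 0.397), and the adjusted p was 0.391 for each of the 5. With edgeR 0 of the 6 members and 0.0171% of all genes were called, and 5 members and 9.89% of all genes had an unadjusted p under 0.05. DESeq2 called 4 members (Hbb-bs, Hba-a2, Hbb-bt and Alas2) and 1.21% of all genes. Groups without overlap, KO lower, were seen for 5 of the 6 members and for 6.46% of all genes.

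In striatum the groups overlapped. Hbb-bs had 79.9, 42.6 and 137 CPM in WT and 27.3, 54.5 and 52.3 CPM in KO, so that WT replicate 2 lay below 2 of the 3 KO libraries. Hba-a1 gave the same order, with 24.4, 12.4 and 40.0 CPM in WT and 6.96, 15.5 and 14.5 CPM in KO. Alas2 had 7.65, 3.06 and 9.98 CPM in WT and 2.25, 4.14 and 3.76 CPM in KO. Means in KO were 47.7% (Hbb-bt) to 51.8% (Hbb-bs) of WT means among the 4 globin genes and Alas2. Their log2 fold changes ran from -0.95 (Hbb-bs, SE 0.405) to -1.06 (Hbb-bt, SE 0.428), with adjusted p from 0.337 to 0.366. WT replicate 3, the highest library, bore on their size: without it the log2 fold change was -0.45 for Hbb-bs, -0.58 for Hba-a1, -0.60 for Hba-a2, -0.66 for Alas2 and -0.84 for Hbb-bt. No member was called by edgeR or DESeq2 in striatum (5 of 6 had an unadjusted p under 0.05 with edgeR, as did 13.5% of all genes), where edgeR called 0.0285% and DESeq2 2.79% of genes. No member had groups without overlap, against 9.39% of all genes with KO lower.

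**Figure D2:**
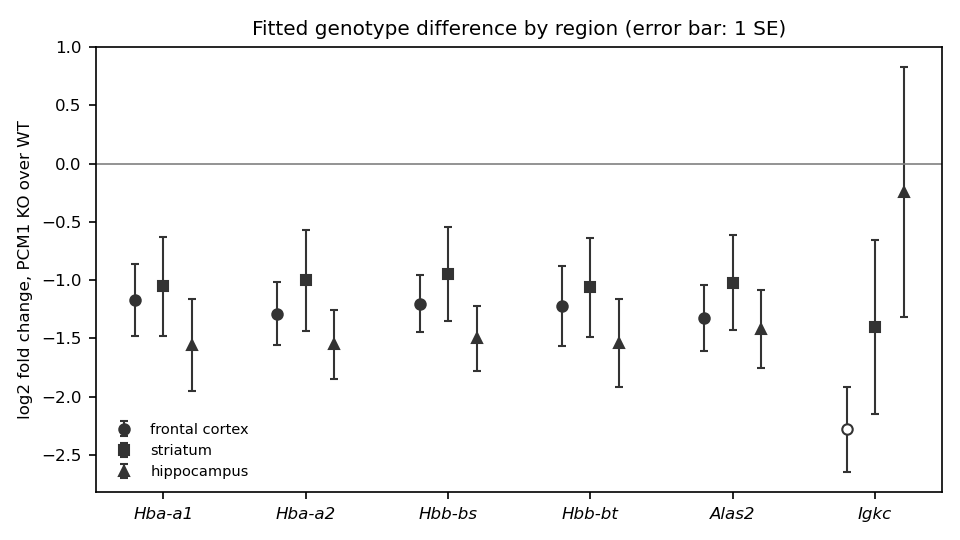
Fitted log2 fold change, PCM1 KO over WT, of each gene in each region, with 1 SE (3 libraries per genotype and region). The 4 globin genes and Alas2 lie between -0.95 and -1.56 in every region, and the open symbol marks the Igkc value in frontal cortex, which is shown without a test.

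Whether the genotype difference of the globins differed between regions was tested in 1 fit of 18 libraries with animal as a block. None of the 5 genes passed, with edgeR or with DESeq2, and 0 had an unadjusted p under 0.05 with edgeR. The adjusted p was lowest for Hbb-bs, at 0.654. That fit called 0% of all genes. The regions share their animals, so the 3 regional differences are not 3 independent results. When the counts of the 3 regions of an animal were summed, leaving 3 KO and 3 WT animals, Hbb-bs had a log2 fold change of -1.21 (SE 0.309, adjusted p = 0.114) and Hbb-bt of -1.26 (SE 0.390, adjusted p = 0.174). By that edgeR test 0 of 5 genes were called and 5 had an unadjusted p under 0.05, where 1.31% of 18767 genes were called and 16.6% had such a p. DESeq2 was not run on the summed counts.

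Sequencing lanes were not balanced. In striatum every WT library ran in lane 5 and no KO library did, so the effects of lane and of genotype on the globins cannot be told apart there. In frontal cortex the summed globins (Hba-a1, Hba-a2, Hbb-bs and Hbb-bt) had 166 CPM in WT and 34.0 CPM in KO within lane 4, and 126 CPM in WT against 75.3 and 63.1 CPM in KO within lane 5. In hippocampus they had 121 CPM in WT against 31.8 and 61.5 CPM in KO within lane 3, and 125 against 66.5 CPM within lane 5. WT was thus above KO within each lane that held both. With lane as a covariate the log2 fold change of Hbb-bs was -1.43 in frontal cortex (adjusted p = 0.0910) and -1.21 in hippocampus (adjusted p = 0.266).

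The globin level varied more between animals than between the regions of an animal. Summed over the 4 genes, WT animal 2 had 166, 217 and 207 CPM in frontal cortex, striatum and hippocampus, the highest of the 6 animals in each region. KO animal 1 had 34.0, 41.7 and 31.8 CPM, the lowest in each region. WT animal 3 was steadiest, with 126, 137 and 125 CPM. WT animal 1 was least steady, with 104, 68.7 and 121 CPM, and its striatum was the library that brought the groups to overlap. KO animal 2 had 75.3, 88.0 and 61.5 CPM, and KO animal 3 63.1, 83.6 and 66.5 CPM.

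Within an animal the highest region exceeded the lowest by 1.09-fold to 1.75-fold, whereas the highest of all 18 libraries exceeded the lowest by 6.81-fold. On the log2 scale the SD between animal means was 0.838 and the SD within animals 0.264. The means of the 3 WT animals (97.9 to 197 CPM) lay above those of the 3 KO animals (35.8 to 74.9 CPM). Animals of the same genotype also differed from each other. Among WT animals, tested over the 3 regions in the fit with animal and region, the 4 globin genes and Alas2 were called, with adjusted p from 0.00160 (Hbb-bt) to 0.0116 (Hba-a2), where 7.31% of genes were called. Among KO animals the 4 globin genes were called, with adjusted p from 0.00130 (Hbb-bt) to 0.0425 (Hbb-bs), and Alas2 was not (adjusted p = 0.0579), where 0.855% of genes were called. Igkc passed in neither, with adjusted p = 0.938 and 0.507.

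**Figure D3:**
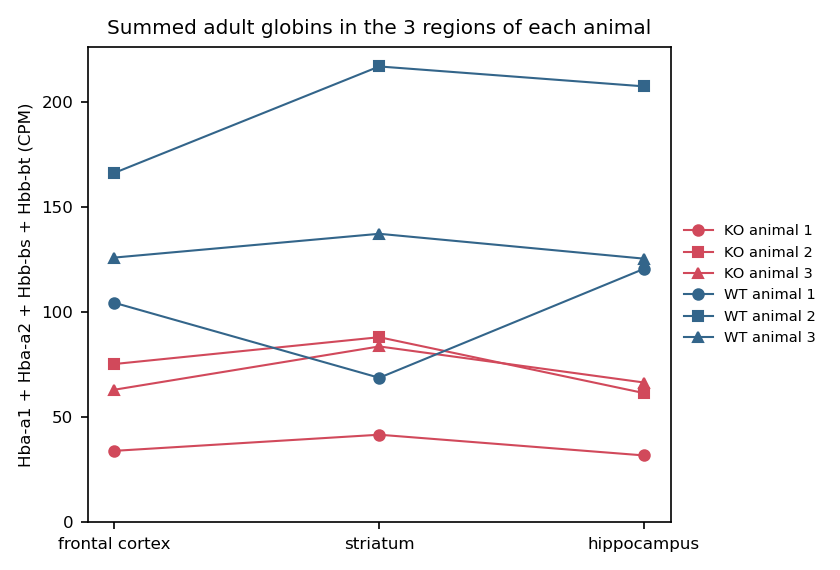
Summed level of the 4 globin genes in CPM in the 3 regions of each of the 6 animals, 1 line per animal. WT animal 2 is the highest and KO animal 1 the lowest in each region, and only the striatum of WT animal 1 (68.7 CPM) falls into the range of KO animals.

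The globins and Alas2 showed small differences between regions of the same animals. Between striatum and frontal cortex, hippocampus and frontal cortex, and striatum and hippocampus, their log2 differences ran from -0.16 to 0.20 with SE from 0.114 to 0.134. With animal as a block, none of these 5 genes was called in any of the 3 comparisons (lowest adjusted p 0.159, for Hbb-bt between striatum and hippocampus), whereas 66%, 56.7% and 57.1% of all genes were. None had an unadjusted p under 0.05, whereas 12037, 10741 and 10753 of the 17545 genes did, and DESeq2 called none, against 11208, 9512 and 9612 of all genes. The striatum of WT animal 1 (replicate 2) bore on this: without it Hbb-bs was called higher in striatum than in frontal cortex (log2 difference 0.32, adjusted p = 0.00150) and than in hippocampus (0.26, adjusted p = 0.00751), and 4 and 5 members were called in those comparisons, where 65% and 55.4% of all genes were. In KO animals alone all 6 members were called between striatum and hippocampus, where 47.2% of all genes were, with Hbb-bs higher in striatum (0.42, adjusted p = 0.000633). Hbb-bs was also called higher in striatum than in frontal cortex there (0.33, adjusted p = 0.00196), where 56.4% of all genes were called.

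The makeup of the globin signal was taken as shares of counts in each library. The Hba genes gave 25.4% to 30.3% of the 4-gene sum (median 28.9%), and Hba-a2 gave 34.6% to 43.1% of the Hba counts (median 38.2%). Alas2 gave 3.93 to 6.06 counts per 100 globin counts (median 4.81). In striatum, where the genotypes formed no separate clusters, the log2 CPM of summed Hba and summed Hbb had Pearson r = 0.998 and Spearman rho = 1 over the 6 libraries (exact permutation p = 0.00278 for each, adjusted p = 0.00417 over 3 pairs). For summed globins and Alas2, r was 0.985 and rho 1 with the same exact permutation p-values. Without the 2 libraries farthest from the median of the first measure r was 0.997 and 0.998. No correlation within frontal cortex or hippocampus is given, since the genotypes lay apart there.

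Hbb-bt took a larger share of the Hbb counts in 1 animal, a feature chosen after its values were seen. In WT animal 3 the share was 17.5% (exact binomial 95% interval 16.0 to 19.1) in frontal cortex, 17.6% (16.2 to 19.2) in striatum and 16.3% (14.9 to 17.8) in hippocampus. In the 15 libraries of the other 5 animals it ran from 9.70% to 14.7%, with the highest upper bound at 16.7%. The Hba-a2 share of that animal, 39.1% to 41.7%, lay within the range of the others. Its replicate number in striatum is 1 and in the other regions 3. These intervals cover counting error only, since reads carry no molecular identifiers.

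**Figure D4:**
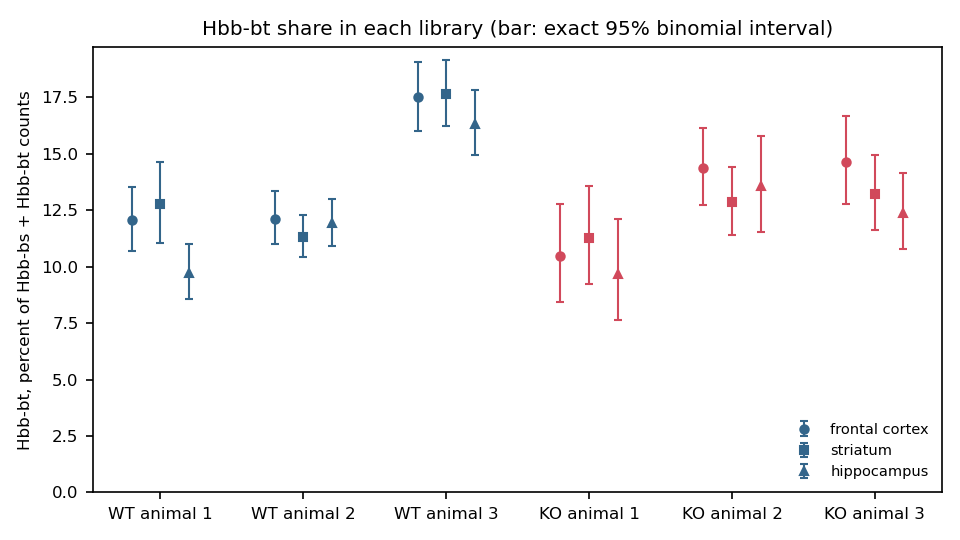
Share of Hbb-bs plus Hbb-bt counts that fell on Hbb-bt, in percent, for each animal and region, with the exact 95% binomial interval (counting error only). The 3 libraries of WT animal 3 lie at 16.3% to 17.6%, above the 9.70% to 14.7% of the other 15.

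Igkc had another pattern. In frontal cortex it had 4.20, 5.17 and 1.99 CPM in WT and 0.815, 0.556 and 0.984 CPM in KO, with the KO mean at 20.7% of the WT mean and a log2 fold change of -2.28. In striatum it had 1.03, 0.108 and 1.36 CPM in WT and 0.214, 0.223 and 0.506 CPM in KO, and the groups overlapped (log2 fold change -1.40, SE 0.748, adjusted p = 0.460). The lowest of these libraries, WT replicate 2, is also the one of lowest globins in WT striatum. In hippocampus it had 13.2, 1.87 and 24.4 CPM in WT and 20.9, 0.378 and 12.4 CPM in KO, so replicate 2 of each genotype was far below the rest (log2 fold change -0.24, SE 1.07, adjusted p = 0.952).

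In the fit of all 18 libraries with animal as a block, Igkc was the only member called between regions. Of all genes 66% were called between striatum and frontal cortex, 56.7% between hippocampus and frontal cortex and 57.1% between striatum and hippocampus. Igkc was higher in hippocampus than in frontal cortex (log2 difference 2.34, SE 0.655, adjusted p = 0.00681) and lower in striatum than in hippocampus (-4.33, SE 0.750, adjusted p = 0.000158). In WT animals alone the former was 1.57 (adjusted p = 0.185). The difference between striatum and frontal cortex was -1.98 (SE 0.803, adjusted p = 0.0410). It was not called without the animal block (adjusted p = 0.0869), in WT animals (adjusted p = 0.0881) or in KO animals (adjusted p = 0.276). Nor was it called when any one of 8 libraries was left out, WT striatum replicates 1 and 2, KO striatum replicates 1 and 3, WT frontal cortex replicates 1 and 2, KO frontal cortex replicate 2 and WT hippocampus replicate 1, and it was smallest without WT frontal cortex replicate 2 (-1.34, adjusted p = 0.184). Within an animal its level varied by 2.49-fold to 122-fold between regions. KO animal 1 had 20.9 CPM in hippocampus and 0.214 CPM in striatum, while its globins were the lowest of all animals in both.

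**Figure D5:**
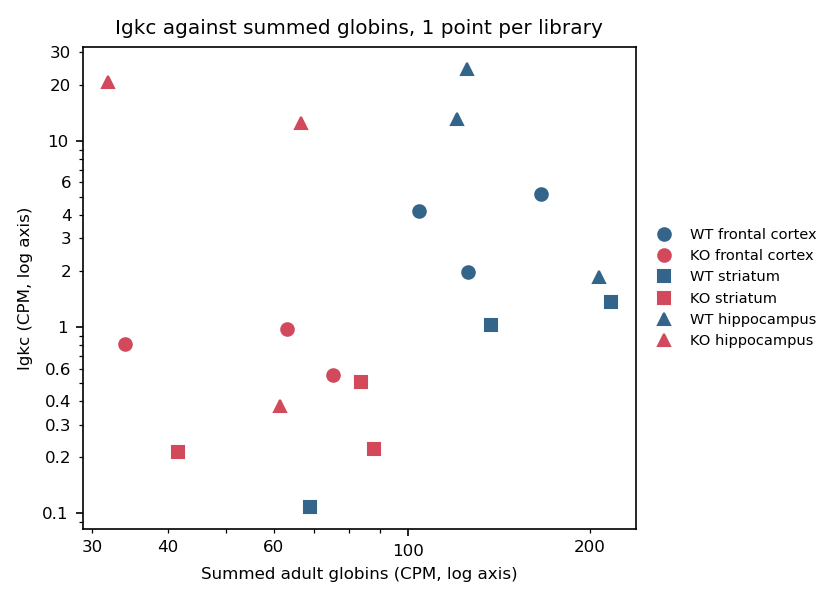
Igkc against the summed globins in CPM (both axes log), 1 point per library, with shape for region and colour for genotype. The 4 libraries of highest Igkc (12.4 to 24.4 CPM) are hippocampal and have 31.8 to 125 CPM of summed globins, while the hippocampal library of highest globins (207 CPM) has 1.87 CPM of Igkc.

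Igkc counts per 100 globin counts ranged from 0.157 to 65.5. In striatum, log2 Igkc and log2 summed globins had r = 0.820 (exact permutation p = 0.0472) and rho = 0.886 (exact permutation p = 0.0333) over 6 libraries, with the same values after adjustment over 3 pairs, and r = 0.883 without the 2 libraries farthest from the median of the globins.

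Jchain, which encodes the joining chain of IgA and IgM, followed Igkc most closely of 15187 genes (r = 0.924 over 18 libraries that share animals, log2 CPM centred on each region but not on genotype). It had 38, 47 and 23 counts in WT frontal cortex and 10, 11 and 14 in KO frontal cortex, the contrast on which Igkc was selected, so its values there are a description too. In hippocampus it had 35, 18 and 158 counts in WT and 191, 5 and 103 in KO. Of the 7 immunoglobulin constant and joining chain genes other than Igkc that could be tested, the 6 besides Jchain had no call in a genotype contrast. The median log2 fold change of the 7 was -0.13 in frontal cortex, against -0.01 over all genes. It was -0.67 in striatum, where 6 of 7 were lower in KO, and 0.85 in hippocampus, where 6 of 7 were higher. In each of these regions 2 of 7 had an unadjusted p under 0.05, against 13.5% and 9.89% of all genes. Single libraries bore on these medians. Without KO hippocampus replicate 1 the hippocampal median was -0.17 (4 lower, 3 higher), and without WT hippocampus replicate 1 it was 2.76. Without WT striatum replicate 3 the striatal median was -0.27 (4 lower, 2 higher). The cortical median ran from -1.13 (without KO replicate 3) to 0.06 (without WT replicate 1). Ighm, the mu heavy chain, had 934 to 1725 counts in the 6 frontal cortex libraries (log2 fold change -0.13, adjusted p = 0.769). Between striatum and hippocampus 6 of the 7 were called lower in striatum, where 57.1% of all genes were called in either direction. The other genes of the 5 most like Igkc were Zic4, Dpp4, Fam83d and Cdh26 (r = 0.852 to 0.829). Without centring on region Jchain stayed first, whereas Zic4 ranked 40, Cdh26 1063, Dpp4 4716 and Fam83d 6477.

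Markers of choroid plexus and meninges, which can be taken along in dissection, were measured beside the members. The summed level of 6 choroid plexus genes was 3.61 to 11.0 CPM in frontal cortex, 31.2 to 5989 CPM in striatum and 222 to 6279 CPM in hippocampus, so it was higher in striatum than in frontal cortex, whereas Igkc was lower in striatum. Ttr, the transthyretin gene and the chief choroid plexus mRNA, had 16 to 158 counts in frontal cortex and 3912 to 151583 in hippocampus. The lowest of the hippocampal values was in KO replicate 2, the library with the lowest hippocampal Igkc, but WT replicate 2 and WT replicate 3 had 57733 and 58590 Ttr counts with 50 and 727 Igkc counts. One striatum library, WT replicate 3, had 161015 Ttr counts and 39 Igkc counts. The summed level of 8 meningeal and perivascular fibroblast genes was 67.2 to 156 CPM in frontal cortex, 44.1 to 351 CPM in striatum and 106 to 477 CPM in hippocampus. Of these 8, 6 were called lower in striatum and 3 higher in hippocampus than in frontal cortex, where 66% and 56.7% of all genes were called in either direction. By genotype none of either list was called, and most had a lower KO estimate with all libraries in the fit. For the fibroblast genes it was 8, 8 and 7 of 8 in frontal cortex, striatum and hippocampus (median log2 fold changes -0.46, -0.65 and -0.57), with an unadjusted p under 0.05 for 1, 4 and 2, against 15.3%, 13.5% and 9.89% of all genes in either direction. Leaving out WT striatum replicate 3 moved the striatal median to -0.36 (7 of 8 lower), and leaving out WT frontal cortex replicate 1 or KO frontal cortex replicate 2 moved the cortical one to -0.24 or -0.25 (6 of 8 lower), whereas it was -0.75 without KO frontal cortex replicate 3 (8 of 8 lower, 7 with an unadjusted p under 0.05). For the choroid plexus genes the KO estimate was lower for 5, 6 and 6 of 6 (medians -0.39, -3.38 and -0.58). The striatal direction rested on WT replicate 3, without which 6 of 6 were higher in KO (median 0.30), and without WT hippocampus replicate 1 the hippocampal genes were split 3 to 3. The part of these tissues in the Igkc and globin differences was not tested.

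Other genes of blood and of heme synthesis were measured beside the members. Hbb-y and Hbb-bh1, the embryonic beta-type genes, had at most 4 counts in a library, whereas Cygb, cytoglobin, had 1450 to 2928. Of 8 heme synthesis genes other than Alas2 none was called in a genotype contrast (1 had an unadjusted p under 0.05 in frontal cortex), and their median log2 fold change in frontal cortex was 0.02. Alas1, the housekeeping counterpart of Alas2, had 1242 to 1924 counts in the 18 libraries (log2 fold change 0.09 in frontal cortex, adjusted p = 0.435). Fech, whose enzyme inserts iron into protoporphyrin to make heme, had -0.03 there (adjusted p = 0.841).

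Of 15 erythroid genes tested, 1 fell in frontal cortex (1.74% of all genes were called in either direction) and none was called in striatum or hippocampus. In the 3 regions 5, 5 and 4 of them were lower in KO at an unadjusted p under 0.05, against 15.3%, 13.5% and 9.89% of all genes in either direction, and in frontal cortex 10 of 15 had a lower KO estimate (median -0.05). The gene that fell was Tfrc, the transferrin receptor of many cell types, with a log2 fold change of -0.35 (adjusted p = 0.0442), and it was called in only 1 of the 6 fits that left out a library (without WT replicate 3), and neither with lane as a covariate (adjusted p = 0.0822) nor in 1 fit of all 18 libraries (adjusted p = 0.405). The erythroid list is largely made of genes that neurons express, such as Sptb and Tmcc2, with means of 359.5 and 265 CPM. Of its red cell genes, Slc4a1, the anion exchanger of the red cell membrane, had 1 to 28 counts per library, and Gata1, an erythroid transcription factor, had 0 or 1. With the regions of each animal summed, 1 of 21 erythroid genes fell, Car2, a carbonic anhydrase gene that red cells and glia both use (log2 fold change -0.35, adjusted p = 0.0352), where 1.31% of all genes were called. The genes whose pattern was most like the summed globins, other than the globins themselves, were Alas2 (r = 0.987), Isg20 (0.889), Snapin (0.875), Ercc2 (0.866) and Naa60 (0.865) among 15184 genes, and Igkc ranked 3481 (r = 0.300), again centred on region and not on genotype. Without that centring Alas2 and Isg20 kept ranks 1 and 2, whereas Snapin ranked 8, Ercc2 359 and Naa60 1865. Isg20, an exonuclease gene on the erythroid list, had 8 to 27 counts per library.

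Neutrophil and monocyte genes were scarce. The summed level of 12 neutrophil and monocyte genes was 1.51 to 2.65 CPM in WT and 0.432 to 0.940 CPM in KO frontal cortex, 0.698 to 2.34 and 0.143 to 0.977 CPM in striatum, and 2.17 to 4.66 and 0.419 to 1.20 CPM in hippocampus. Lcn2 alone had 48 counts in WT striatum replicate 2 and 57 in WT hippocampus replicate 1, where summed counts reached 65 and 121. The cells that made it were not identified. All 5 genes of this list that could be tested had a lower KO estimate in every region, and none was called. Median log2 fold changes were -1.98 in frontal cortex, -1.22 in striatum and -2.63 in hippocampus. An unadjusted p under 0.05 was seen for 4, 2 and 4 of the 5, against 15.3%, 13.5% and 9.89% of all genes. In striatum the direction did not hold for each gene when a library was left out, with 3 to 5 of the 5 lower in KO. S100a9, a neutrophil calcium-binding protein gene, had 5, 12 and 15 counts in WT and 5, 3 and 1 in KO frontal cortex. Of 8 platelet genes tested none was called (1 had an unadjusted p under 0.05 in frontal cortex and 1 in hippocampus), and Ppbp, a platelet chemokine gene, had 1 to 15 counts per library. Of 11 B and plasma cell genes and 6 T cell genes tested, none was called in any region, and the unadjusted p was under 0.05 for 3 of the 11 B and plasma cell genes in frontal cortex and 1 in hippocampus, against 15.3% and 9.89% of all genes. These lists also hold genes that brain cells express: the B and plasma cell list summed to 75.9 to 140 CPM, mostly from Xbp1, a transcription factor of many cell types with a mean of 80.1 CPM.

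Vessel genes were measured beside the blood genes because blood lies in vessels. Of 10 endothelial genes none was called in any region, and 3 in frontal cortex, 2 in striatum and 5 in hippocampus had an unadjusted p under 0.05, all lower in KO, against 15.3%, 13.5% and 9.89% of all genes in either direction, with median log2 fold changes of -0.33, -0.20 and -0.40. The medians were -0.07 without WT frontal cortex replicate 1 and -0.23 without WT hippocampus replicate 1, and between -0.12 and -0.14 without WT striatum replicate 1 or 2 or KO striatum replicate 1, and -0.31 without WT striatum replicate 3. Their summed level was 252 to 354 CPM in WT and 236 to 257 CPM in KO frontal cortex. All 8 mural genes had a lower KO estimate in frontal cortex (median -0.32), 6 with an unadjusted p under 0.05, and 1 fell: Acta2, the smooth muscle actin gene of arteries, had 207, 153 and 131 counts in WT and 78, 86 and 84 in KO (log2 fold change -1.16, adjusted p = 0.0186). It was called in 2 of the 6 fits that left out a library (without WT replicate 1 or 3), with adjusted p up to 0.122 in the others, and not with lane as a covariate (adjusted p = 0.0790). In hippocampus Acta2 had -0.89 (adjusted p = 0.397) and in striatum 0.16 (adjusted p = 0.718). Of the 8 mural genes, 7 had a lower KO estimate in striatum (median -0.17), all but Acta2, and 7 in hippocampus (median -0.23). None was called in either region. In each, 3 had an unadjusted p under 0.05, against 13.5% and 9.89% of all genes. With the regions of each animal summed, Myh11, the smooth muscle myosin gene, fell (-0.95, adjusted p = 0.0236) and Acta2 was not called (adjusted p = 0.105). The part of vessel content in the globin difference was not tested.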

How the data were processed

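Stranded polyA RNA-seq of 18 mouse brain libraries was used. Per the study's methods, the authors trimmed reads with Trim Galore and cutadapt, aligned them with STAR to GRCm38, kept reads mapping to 1 location and counted genes with HTSeq, and the deposited values are raw read counts per gene. Versions and the strand setting of the counting are not given in the sources used here. Between 10.8% and 13.2% of reads fell on no gene or on several and were left out of library sizes. Groups came from the labels, animals from the deposited names, whose numbers were read as animals. The members and gene lists were chosen with earlier results of these data known.

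Genes with at least 10 counts in any library were tested in edgeR 4.0.16 (R 4.3.3) with TMM normalization and the quasi-likelihood test, two-sided, with Benjamini-Hochberg adjustment over all genes, per region for genotype and over 18 libraries with animal as a block for region, interaction and animals. Replicates are littermate animals, so p-values of the genotype tests per region and on summed counts rest on the spread between 3 animals per genotype. Those of the fits with animal as a block rest on the spread between regions within animals, each animal with a single library per region. This holds also for the tests among animals of a genotype. CPM are counts relative to the TMM-scaled library size, per kb by exonic length (GENCODE M21). Shares have exact Clopper-Pearson 95% intervals. Correlations used exact two-sided permutation over all pairings (scipy 1.17.1). Genes of similar pattern were the 5 with the highest Pearson r of log2 CPM (prior count 2), region-centred, among genes with a mean of at least 0.5 CPM. From each list the 3 most abundant genes, called genes and genes of a member's locus or complex could be named, and Slc4a1, Gata1, Ppbp, Mzb1 and the V genes were added after their values were seen. Alternatives were DESeq2 1.42.0, its size factors, other filters, lane, blocks, single genotypes and leaving out each library, which for the gene lists was added after the data were seen. The scripts' tests were checked on simulated counts.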

Additional observations from a re-analysis of the deposited data

How the results depend on the processing

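The globin and Alas2 genotype differences were below 0 in all 235 values under the alternatives other than the globin covariate (each gene in each contrast and setting is 1 value), from -1.84 to -0.45 on the log2 scale, and 20 of those values passed the threshold. In frontal cortex 3 members were called by DESeq2, 5 without the filter on low counts and 0 to 2 when each library was left out. In hippocampus DESeq2 called 4, and leaving out each library called 0, as in striatum. For the region comparisons, the count of members called was 0 for striatum against frontal cortex without the animal block and in WT animals, 0 for hippocampus against frontal cortex in WT animals, and 6 for striatum against hippocampus in KO animals. Leaving out each library gave 0 to 4, 1 to 1 and 1 to 5 members. The interaction and the summed counts stayed at 0. The causes were not tested, beyond fewer animals in single genotypes.

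Whether replicate numbers pair the samples differed between regions by the check used. Same-numbered KO and WT libraries deviated together with r = 0.043, 0.260 and 0.197 in frontal cortex. The highest r of each WT library with other-numbered KO libraries was 0.007, -0.081 and 0.040 there. In striatum r was 0.178, -0.156 and -0.269, against 0.229, 0.119 and 0.388 with other numbers. In hippocampus it was 0.096, 0.507 and 0.194, against 0.221, -0.299 and 0.232. The same number thus gave the higher r for each replicate in frontal cortex, for none in striatum and only for replicate 2 in hippocampus. With the replicate block 5 members were called in frontal cortex, among 665 of 17545 genes, and 1 (Hbb-bt) in hippocampus, among 9.

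Signs turned only in values that had not passed the threshold or were not tested. With log2 summed globins as a covariate, added after the data were seen, Igkc had 0.13 in striatum (adjusted p = 0.982) and Alas2 had 0.16 in hippocampus. Igkc in hippocampus kept its sign with that covariate, at -3.05 (adjusted p = 0.925), against -0.24 without it. Without 1 library, Igkc in hippocampus ran from -1.04 to 0.56 and over the 3 regions summed from -1.13 to 0.041. In WT animals, striatum against frontal cortex gave -0.060 for Hba-a2, -0.011 for Hbb-bs, -0.019 for Hbb-bt and -0.14 for Alas2. Hippocampus against frontal cortex gave 0.075 for Hba-a2 and 0.017 for Hbb-bt there, and striatum against hippocampus -0.17 for Hba-a1, -0.14 for Hba-a2, -0.20 for Hbb-bs, -0.036 for Hbb-bt and -0.0063 for Alas2. In KO animals hippocampus against frontal cortex gave -0.094 for Hba-a1 and -0.087 for Hbb-bs, and with the replicate block 0.0019 for Hba-a2. Without 1 library, striatum against frontal cortex ran from -0.021 to 0.17 for Alas2, and hippocampus against frontal cortex from -0.088 to 0.077 for Hba-a2 and from -0.064 to 0.14 for Hbb-bs.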

Other observations

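The variable-region genes of immunoglobulins, which no comparison above used, had their highest counts in hippocampal libraries, but not in replicate 2 of either genotype. Summed over 102 Igkv genes, WT hippocampus replicates 1, 2 and 3 had 126, 27 and 327 counts and KO hippocampus replicates 1, 2 and 3 had 289, 2 and 162. WT frontal cortex replicates 1, 2 and 3 had 54, 48 and 24 and KO frontal cortex replicates 9, 3 and 13, and striatum libraries had 2 to 14. The spread over single Igkv genes differed between libraries of like Igkc level. In KO hippocampus replicate 1, 49 Igkv genes had a count and the highest, Igkv2-137, held 7.61% of them. In WT hippocampus replicate 3, 22 had a count and Igkv1-133 held 26.6%, and in WT hippocampus replicate 1 Igkv3-2 held 57.9% (73 of 126 counts). For the heavy chain, Ighv1-9 held 45.9% of the 268 Ighv counts of WT hippocampus replicate 3, against 10.4% for the highest, Ighv1-81, of the 163 counts of KO hippocampus replicate 1. These genes were singled out after their values were seen, and reads shared by near-identical V genes were not counted.

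Counts of heavy chain genes also differed between those libraries. KO hippocampus replicate 1 had 667 Igha counts, the alpha chain of IgA, and 1113 Ighm counts, while WT hippocampus replicate 3 had 19 and 2801. Ighm was also high where Igkc was scarce, with 1389 Ighm and 18 Igkc counts in KO frontal cortex replicate 2. The Ighm counts thus give no share of an antibody class. KO hippocampus replicate 3 held 74 Ighg3 counts, where no other library had more than 4. Mzb1, an endoplasmic reticulum protein gene of antibody-secreting cells, had 13 counts at most, in KO hippocampus replicate 1. Each is the value of a single library, with no test.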
